A study of Mus musculus with 6 samples.

Results

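The cathepsin family was followed as 10 genes, Ctsb, Ctsc, Ctsd, Ctsf, Ctsh, Ctsk, Ctsl, Ctso, Ctss and Ctsz, in brains of mice with Pofut1 deleted by Nestin-Cre and in brains of both control genotypes. Members were all probe sets whose platform annotation names 1 gene symbol and that symbol is one of the 10, which gave 22 probe sets among 45037 and 10 genes among 18193. Ctsb had 5 probe sets, Ctsc and Ctsz had 3 each, Ctsf, Ctsh, Ctsl and Ctso had 2 each, and Ctsd, Ctsk and Ctss had 1 each. Probe sets of 1 gene report on the same RNA and are no replicates of one another, so the brightest of each gene, by its mean over all arrays, is described first. Of the 10 brightest probe sets, 9 had a mean above the array-wide median, a log2 value of 7.34, and that of Ctsk lay below it.

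Each of 6 arrays held total RNA (25 ng) of brain from C57/Bl6 mice aged 2 months, with 2 arrays in each of 3 groups. Pofut1 Knockout brains carried Nestin-Cre and were Pofut1 flox/flox. NestinCre control brains carried Nestin-Cre and wild type Pofut1, and Flox control brains were Pofut1 flox/flox, with no Cre given. Knockout and NestinCre control therefore share the transgene, and knockout and Flox control share the floxed gene. The Nestin promoter drives Cre in neural progenitors, so recombination is inherited by neurons, astrocytes and oligodendrocytes, while microglia and blood-derived cells come from another lineage. Pofut1 encodes the enzyme that puts O-linked fucose on EGF-like repeats, including those of Notch receptors. By its title the series asks about self-renewal and differentiation of adult neural progenitors after loss of Pofut1. Which animals the arrays came from is not given in the labels. The sex read below differs between the arrays of knockout and between those of NestinCre control, so these held different animals. Both Flox control arrays read as female, so this cannot be told for them. The spread behind each p-value may be partly technical.

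Cathepsins are proteases that digest proteins inside lysosomes. Most are cysteine proteases related to papain, and cathepsin D is an aspartic protease. They are made as inactive precursors, sorted by mannose 6-phosphate receptors and activated in the acid lumen, while cystatins inhibit the cysteine members. Cathepsins B, D and L are made by almost every cell, whereas cathepsins S, C, H and Z are most abundant in microglia, macrophages and other immune cells.

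The sequences before the start sites are shown for Ctsc and Ctss, the members with the largest log2 differences below, and for Ctsd, a broadly made member that differed little. RefSeq promoter entries (build GRCm38.p6) were found for 8 of the 10 genes, and the 250 bases before the annotated start were searched on both strands. Promoters of Ctsb and Ctsh were not analysed here. Capitals mark matches to the core of the interferon-stimulated response element, which is GAAA, any 2 bases and GAAA again, to CACGTG, the E-box read by TFEB and its relatives, with or without the flanks of TCACGTGA, and to GAGGAA or its complement TTCCTC, a core bound by the myeloid factor PU.1. The longer E-box contains the shorter one. Ctss lies at chr3:95526536-95526785 on the + strand, Ctsc at chr7:88277835-88278084 on the + strand and Ctsd at chr7:142387828-142388077 on the - strand, each printed 5′ to 3′ along the gene.
Ctss: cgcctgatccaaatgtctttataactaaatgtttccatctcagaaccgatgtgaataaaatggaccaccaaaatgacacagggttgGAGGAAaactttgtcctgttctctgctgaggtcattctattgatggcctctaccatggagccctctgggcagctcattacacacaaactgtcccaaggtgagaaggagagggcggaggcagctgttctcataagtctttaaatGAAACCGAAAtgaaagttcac
Ctsc: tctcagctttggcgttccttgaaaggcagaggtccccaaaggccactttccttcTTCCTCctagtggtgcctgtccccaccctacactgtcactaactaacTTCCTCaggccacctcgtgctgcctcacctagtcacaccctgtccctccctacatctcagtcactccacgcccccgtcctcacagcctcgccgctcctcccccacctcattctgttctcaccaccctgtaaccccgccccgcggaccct
Ctsd: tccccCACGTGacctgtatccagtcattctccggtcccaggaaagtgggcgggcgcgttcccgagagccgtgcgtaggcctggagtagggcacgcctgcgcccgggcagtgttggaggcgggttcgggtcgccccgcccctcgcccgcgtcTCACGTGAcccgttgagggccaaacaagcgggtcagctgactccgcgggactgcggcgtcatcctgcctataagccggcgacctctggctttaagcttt
The interferon-stimulated response element core occurred in 1 of the 8 member promoters, that of Ctss, as GAAACCGAAA between bases -21 and -12, and in 2.98% of all 32851 promoter entries. The CACGTG E-box occurred in 3 of 8, those of Ctsd, Ctsf and Ctsl, and in 6.02% of all. With the flanks of TCACGTGA it occurred once, in Ctsd between bases -99 and -92, and in 0.785% of all. The GAGGAA core occurred in Ctsc, Ctsk and Ctss, 3 of 8, against 23.3% of all. These matches describe letters in a window and say nothing of whether a factor was bound.

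Some facts of the arrays touch the cathepsin values. By Xist, the RNA that coats the silenced X, and Eif2s3y, a gene of the Y, knockout replicate 1 and NestinCre control replicate 2 read as male and 4 arrays as female. On its brightest probe set, Pofut1 stood at 9.25 and 9.44 on the log2 scale in knockout, 9.84 and 9.77 in NestinCre control and 9.95 and 9.81 in Flox control, so both knockout arrays lay below all controls. All 10 neuron, 10 astrocyte and 9 oligodendrocyte markers measured lay above the median of all probe sets. Flox control brains held more pituitary RNA, with summed marker intensities of 1139 and 2374 against 688 to 852 on the other arrays. NestinCre control replicate 2 stood apart in the neutrophil genes S100a8 (573, against 72.1 to 94.2 elsewhere) and S100a9 (622, against 98.4 to 126 elsewhere).

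Knockout brain was set against both controls to find which cathepsins differ when Pofut1 is lost. Ctsc, Ctss and Ctsh, 3 of 10 genes, had higher intensities on both knockout arrays than on any of the 4 control arrays, against 7.23% of all genes. Set against the average of both control means on the log2 scale, knockout was higher by 1.51-fold, 1.31-fold and 1.25-fold for these genes. Ctsz was 1.19-fold higher on average, and Ctsb, Ctsd, Ctsl, Ctsf and Ctsk differed by log2 values between -0.11 and 0.05. Ctso was lower by 0.16 on the log2 scale, a difference that lay between Flox control and the other groups. None of the 22 probe sets passed the threshold of 0.05 after limma's p-values were adjusted over all probe sets, where 0.0155% of all probe sets did. In brain RNA, a change in the number of cells of a type and a change in RNA per cell cannot be told apart.

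**Figure D1:**
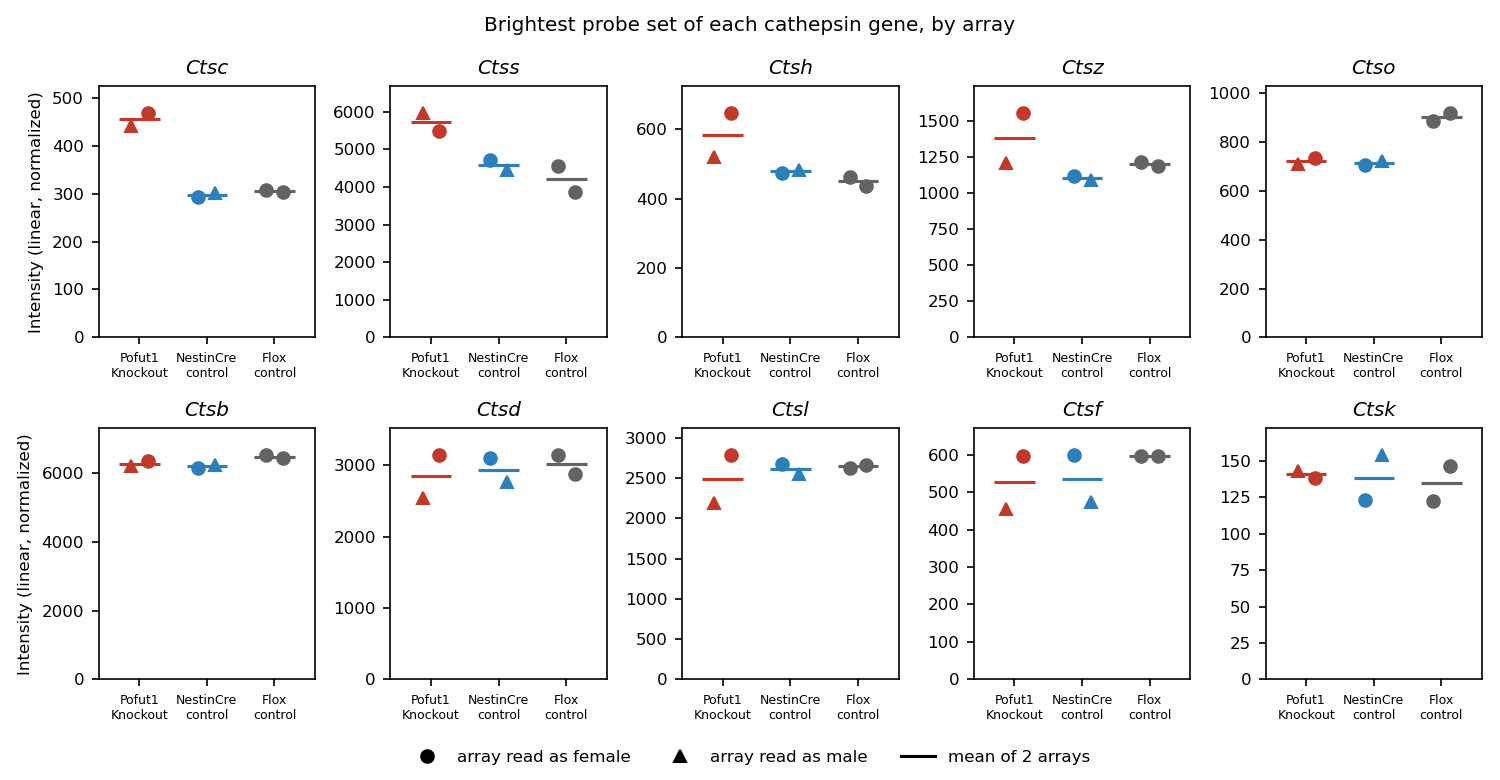
Linear intensity of the brightest probe set of each of the 10 genes (vertical axes start at 0) on the 2 arrays of Pofut1 Knockout, NestinCre control and Flox control, with lines at the means of 2 arrays and symbols by the sex read from Xist and Eif2s3y. The knockout arrays of Ctsc, Ctss and Ctsh sit above all 4 control arrays, and the Flox control arrays of Ctso sit above the other 4.

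Ctsc, or dipeptidyl peptidase 1, removes dipeptides from protein ends and activates the serine proteases of immune cell granules. Its brightest probe set had intensities of 442 and 469 in knockout, 294 and 302 in NestinCre control and 307 and 304 in Flox control. The 4 control arrays lay close together, and both knockout arrays lay above all of them. The means were 455 ± 19.2 (SD, n = 2) in knockout, 298 ± 5.65 (SD, n = 2) in NestinCre control and 306 ± 1.94 (SD, n = 2) in Flox control. The log2 difference was 0.59 (SE 0.05, 95% interval 0.46 to 0.72), with a limma p of 8.44e-05 before and 0.0890 after adjustment, which did not pass. In that main fit 0.0275% of genes passed on their brightest probe set, and Ctsc was not among them. Each gene was then represented by its brightest probe set alone, and the share passing was not counted there. In that fit of 18193 genes the adjusted limma p of Ctsc was 0.0428 and passed. Over all alternatives it ran from 0.0428 to 0.730.

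Both dimmer Ctsc probe sets, with means below the median of all probe sets, pointed the same way with larger errors relative to their size. One had intensities of 184 and 135 in knockout, 99.3 and 140.3 in NestinCre control and 85.0 and 117 in Flox control, a log2 difference of 0.54 (SE 0.23). The other differed by 0.17 (SE 0.10), and for neither did the knockout arrays clear all controls. The granule proteases that cathepsin C activates were near the lowest intensities of the arrays, with Ctsg at 41.8 and 43.7 in knockout and 42.4 to 43.2 in the controls, and Elane, Gzma and Gzmb between 42.2 and 51.4 on all arrays.

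Ctss, an endopeptidase that stays active at neutral pH and trims the invariant chain of MHC class II, was measured by 1 bright probe set. Its intensities were 5968 and 5494 in knockout, 4724 and 4443 in NestinCre control and 4565 and 3866 in Flox control. Both knockout arrays were higher than all controls, and both control groups overlapped. The means were 5731 ± 335 (SD, n = 2), 4584 ± 199 (SD, n = 2) and 4216 ± 494 (SD, n = 2) in knockout, NestinCre control and Flox control. The log2 difference was 0.38 (SE 0.09, 95% interval 0.16 to 0.61), with a limma p of 0.00775 before and 0.273 after adjustment. Its promoter is the one above that holds the interferon-stimulated response element core. Ctsk, whose start lies 27.6 kb away on chromosome 3, had a log2 difference of 0.05 (SE 0.12).

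Ctsh trims amino acids from protein ends and is, among other sites, a protease of lung and macrophages. Its intensities were 519 and 648 in knockout, 476 and 483 in NestinCre control and 463 and 437 in Flox control. Knockout replicate 2 stood well above replicate 1, and both lay above the controls, giving a log2 difference of 0.32 (SE 0.10, 95% interval 0.06 to 0.58) and an adjusted limma p of 0.374. Without knockout replicate 2 the log2 difference was 0.16 (SE 0.07) and without replicate 1 it was 0.48 (SE 0.07), so the size rested on which knockout array was used. The second probe set was also higher on both knockout arrays, at 371 and 394, than in NestinCre control, at 329 and 347, and in Flox control, at 368 and 371, with a log2 difference of 0.11 (SE 0.05).

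Ctsz, a carboxypeptidase also called cathepsin X, showed the same split between the knockout arrays on all 3 probe sets. The brightest had 1204 and 1554 in knockout, 1118 and 1087 in NestinCre control and 1213 and 1185 in Flox control. Only knockout replicate 2 was above all controls, and replicate 1 lay among the Flox control arrays. The log2 difference of 0.25 (SE 0.11, 95% interval -0.04 to 0.54) became 0.07 (SE 0.07) without replicate 2 and 0.43 (SE 0.07) without replicate 1. The other probe sets differed by 0.23 (SE 0.15) and 0.32 (SE 0.17). Ctsz lies on chromosome 2, as does Pofut1, with 21.2 Mb between the starts of the genes.

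**Figure D2:**
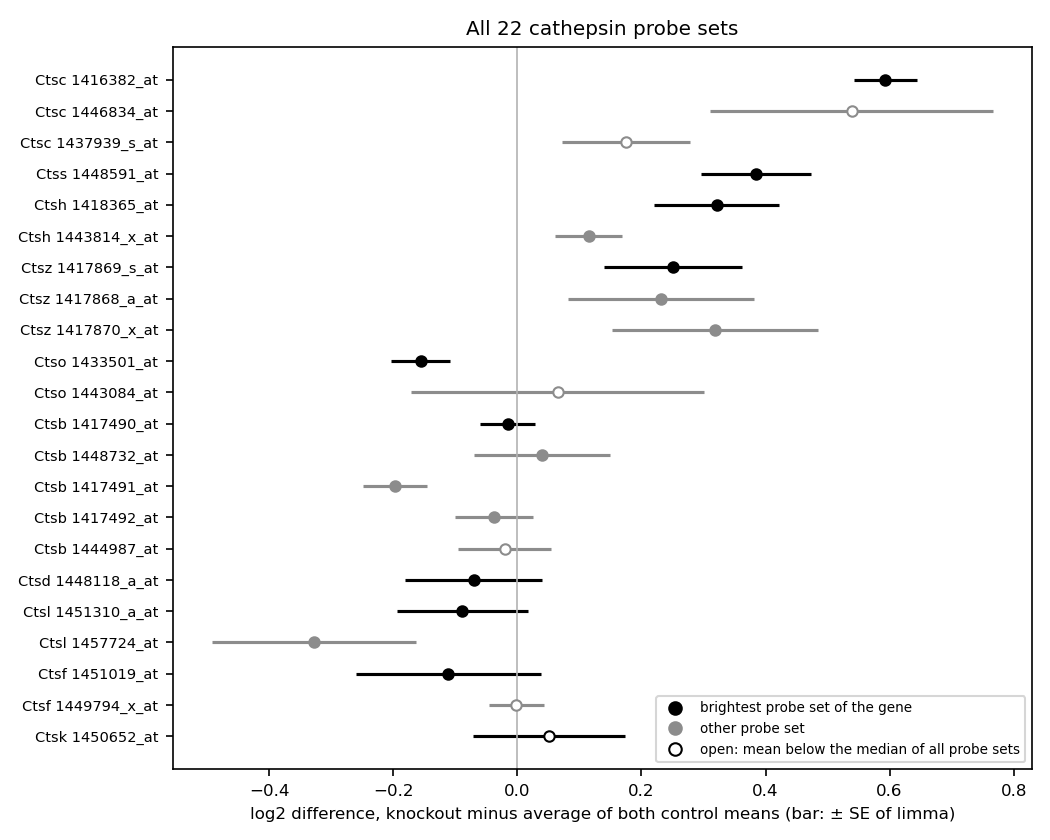
Difference of knockout from the average of both control means (horizontal axis, log2 scale; bars are ± SE of limma) for all 22 probe sets, ordered by gene and brightness, with the brightest of each gene in black and open symbols for means below the median of all probe sets. All 9 probe sets of Ctsc, Ctss, Ctsh and Ctsz lie above 0, and those of the other genes lie on both sides.

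The sexes of the arrays can be compared with these values, since each sex holds 1 knockout array. The female knockout array exceeded the mean of the 3 female control arrays by 0.64 on the log2 scale for Ctsc, 0.33 for Ctss, 0.50 for Ctsh and 0.41 for Ctsz. The male knockout array exceeded the male NestinCre control array by 0.55 for Ctsc, 0.43 for Ctss, 0.11 for Ctsh and 0.15 for Ctsz. Ctsc and Ctss were thus higher in knockout within both sexes, while Ctsh and Ctsz were higher mainly on the female knockout array. The sizes are not matched, since the female controls included both Flox control arrays and the male control was NestinCre control alone. Against NestinCre control of the same sex, Ctss stood at 12.42 against 12.21 on the log2 scale in females. In males it stood at 12.54 against 12.12. With 1 knockout array per sex, the sex and the array cannot be told apart.

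The broadly made lysosomal proteases had log2 differences near 0 on their brightest probe sets. Ctsb, a cysteine endopeptidase that also removes dipeptides from carboxyl ends, had 6214 and 6346 in knockout, 6165 and 6254 in NestinCre control and 6537 and 6441 in Flox control. That is a log2 difference of -0.02 (SE 0.04, 95% interval -0.13 to 0.10). Of its other 4 probe sets, 3 differed by -0.04 to 0.04. The last had 1116 and 1192 in knockout, 1267 and 1251 in NestinCre control and 1369 and 1408 in Flox control. It was thus lower on both knockout arrays than on any control, by 0.20 on the log2 scale (95% interval -0.33 to -0.06, limma p 0.0129 before and 0.316 after adjustment), while the brightest probe set of the same gene overlapped between groups.

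Ctsd, the aspartic protease whose loss causes a neuronal storage disease in mice and people, had 2547 and 3147 in knockout, 3099 and 2772 in NestinCre control and 3148 and 2887 in Flox control. Ctsl, a cysteine endopeptidase of many tissues, had 2196 and 2791 in knockout, 2675 and 2558 in NestinCre control and 2632 and 2664 in Flox control. For both genes knockout replicate 1 was the lowest of the 6 arrays and replicate 2 was among the highest, so the knockout range covered nearly all control values. The log2 difference was -0.07 (SE 0.11, 95% interval -0.35 to 0.21) for Ctsd and -0.09 (SE 0.11, 95% interval -0.36 to 0.19) for Ctsl. A second, dimmer Ctsl probe set differed by -0.33 (SE 0.16), with overlapping groups.

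Ctsf, a cysteine protease mutated in a human adult-onset storage disease of neurons, had 456 and 596 in knockout, 599 and 472 in NestinCre control and 596 and 596 in Flox control. The low arrays were the male array of each Cre-carrying group, and the 4 female arrays lay between 596 and 599. The log2 difference of knockout from both controls was -0.11 (SE 0.15, 95% interval -0.50 to 0.27). Ctsk, the collagen-degrading protease of osteoclasts, was dim, with 143 and 138 in knockout, 123 and 154 in NestinCre control and 123 and 146 in Flox control. Its knockout arrays lay inside the control range.

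Ctsf, Ctsd and Ctsl were lower on both arrays read as male than on all 4 arrays read as female, a pattern noticed in these values and not tested. Ctsf had 456 and 472 on the male arrays, against 596 to 599 on the female arrays. Ctsd had 2547 and 2772 on the male arrays, against 2887 to 3148 on the female arrays, and Ctsl had 2196 and 2558 on the male arrays, against 2632 to 2791 on the female arrays. Male arrays were lower without overlap for 3 of 10 genes, against 16.1% of all genes, and for 7 of 22 probe sets, against 12.8% of all. They were higher without overlap for 0 of 10 genes, against 6.38% of all genes, and for 1 of 22 probe sets, against 9.89% of all. No Flox control array read as male.

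Ctso, a little-studied cysteine protease, followed another order. Its brightest probe set had 710.3 and 733 in knockout, 708 and 723 in NestinCre control and 889 and 920.02 in Flox control. Knockout and NestinCre control overlapped, and both lay below Flox control. NestinCre control minus Flox control was -0.34 (SE 0.05, 95% interval -0.48 to -0.20) and knockout minus Flox control -0.33 (SE 0.05, 95% interval -0.47 to -0.18), with limma p of 0.00171 and 0.00205 before and 0.376 and 0.141 after adjustment. Knockout minus NestinCre control was 0.01 (SE 0.05, 95% interval -0.13 to 0.16). The dim second probe set overlapped between all groups, at 131 and 126 in knockout, 97.1 and 149.9 in NestinCre control and 103 and 151 in Flox control. Both Flox control arrays were also those with more pituitary RNA, and its part in the Ctso values was not tested.

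Counted over the family, 5 of the 22 probe sets had an unadjusted limma p under 0.05 against both controls, against 11.1% of all probe sets. Of these 3 were higher, against 6.04% of all, and 2 were lower, against 5.08%. On 4 of 22 probe sets both knockout arrays lay above all controls, against 8.77% of all, and on 1 of 22 below them, against 9.19%. Among the brightest probe sets 4 of 10 had an unadjusted limma p under 0.05, 3 of them higher, against 10.6% of all genes in either direction and 4.16% higher. Groups did not overlap, with knockout higher, for 3 of 10 genes, against 7.23% of all genes, and with knockout lower for 0 of 10, against 10.9%. The median log2 difference of the 10 genes was 0.02, against -0.02 over all genes, and their values ran from -0.16 to 0.59. Of the 10 values, 5 lay above 0, those of Ctsc, Ctss, Ctsh, Ctsz and Ctsk, against 40.7% of all genes.

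Against NestinCre control alone, which shares the transgene and lacks the floxed alleles, the log2 difference was 0.61 (SE 0.06) for Ctsc, 0.32 (SE 0.10) for Ctss, 0.28 (SE 0.12) for Ctsh and 0.31 (SE 0.13) for Ctsz. Both knockout arrays lay above both NestinCre control arrays for these 4 of the 10 genes, against 16% of all genes. The other genes differed by -0.08 to 0.03. At an unadjusted limma p under 0.05 there were 3 of 22 probe sets, against 5.81% of all, and all 3 were higher, against 3.2% of all. No probe set on the arrays passed after adjustment here (0%), and the smallest adjusted limma p of a cathepsin was 0.156, for Ctsc.

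Against Flox control alone, which shares the floxed alleles and lacks Cre, the log2 difference was 0.57 (SE 0.06) for Ctsc, 0.45 (SE 0.10) for Ctss, 0.37 (SE 0.12) for Ctsh and 0.19 (SE 0.13) for Ctsz. Both knockout arrays were higher for 3 of 10 genes, against 15.5% of all genes, and lower for 2 of 10, Ctso and Ctsb, against 30.3%. At an unadjusted limma p under 0.05 there were 5 of 22 probe sets, against 15.9% of all, with 3 higher (8.29% of all) and 2 lower (7.65% of all). The smallest adjusted limma p of a cathepsin was 0.110, for Ctsc, where 0.00444% of all probe sets passed. Both comparisons share the knockout arrays, so their values are not independent.

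Between NestinCre control and Flox control, 1 of 22 probe sets, that of Ctso, had an unadjusted limma p under 0.05, against 10.4% of all, and after adjustment no probe set on the arrays passed (0%). Ctsc differed by -0.04 (SE 0.06), Ctss by 0.13 (SE 0.10), Ctsh by 0.09 (SE 0.12) and Ctsz by -0.12 (SE 0.13). For Ctsc, the difference of either control from knockout was far larger than the one between the controls. For Ctsz, the difference between the controls was nearer in size to that of knockout from Flox control.

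**Figure D3:**
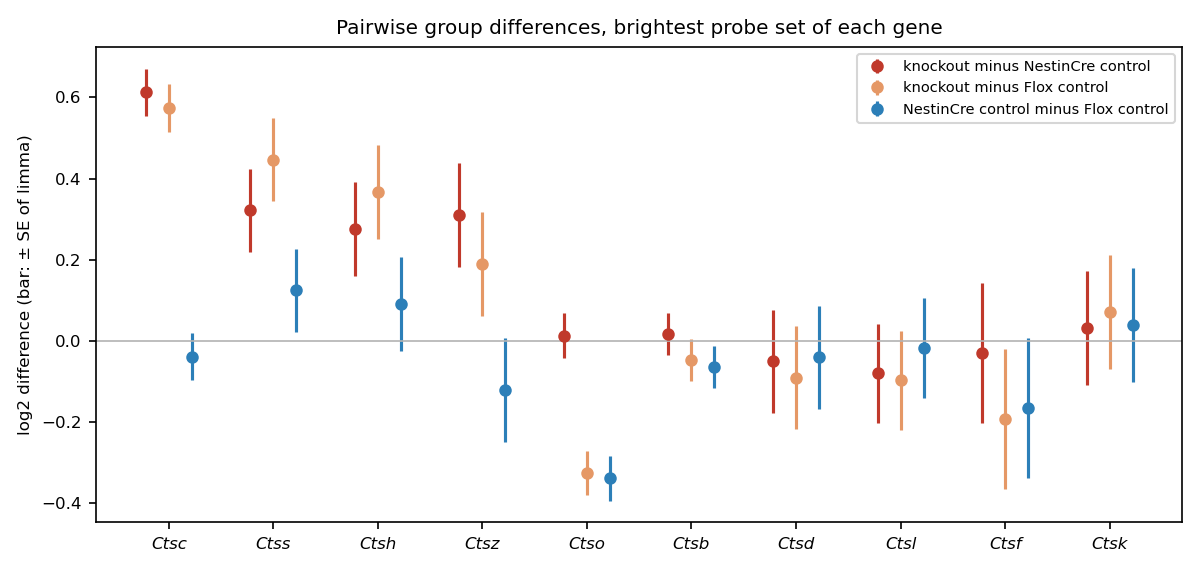
Log2 difference (vertical axis, ± SE of limma) between each pair of groups for the brightest probe set of each of the 10 genes, with knockout minus NestinCre control in red, knockout minus Flox control in orange and NestinCre control minus Flox control in blue. Ctsc stands at 0.61 and 0.57 against the controls with -0.04 between them, and for Ctso both comparisons with Flox control lie near -0.33.

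Other genes of the lysosome were read from lists chosen with earlier results of these arrays known, against shares over all genes of 4.16% higher and 6.45% lower at an unadjusted limma p under 0.05. Of 18 further cathepsins and related proteases, all measured and 6 of them above the median brightness, none had an unadjusted limma p under 0.05 against both controls, and their median log2 difference was 0.0032. The smallest p belonged to Ctsr and Cts3, rodent placental cathepsins that were dim here, and to Lgmn, the legumain that processes several cathepsins, at 0.11 (SE 0.09). Of 15 measured cystatins and other inhibitors, 2 had a p under 0.05 in the higher and 1 in the lower direction. Cst7, the cystatin F made by immune cells and an inhibitor of cathepsin C, had 80.2 and 75.2 in knockout, 69.2 and 53.8 in NestinCre control and 55.4 and 58.6 in Flox control, all dim, with a log2 difference of 0.40 (SE 0.11) and an adjusted limma p of 0.344. The serine protease inhibitor gene Serpina3n differed by 0.30 (SE 0.10) with overlapping groups, and the kininogen gene Kng1 by -0.13 (SE 0.05).

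Of 30 measured lysosomal hydrolases and activators, 0 had an unadjusted limma p under 0.05 in the higher and 2 in the lower direction, with a median log2 difference of -0.03. Gla, the alpha-galactosidase of glycolipids, had 221 and 214 in knockout, 288 and 276 in NestinCre control and 274 and 291 in Flox control, a log2 difference of -0.38 (SE 0.05, adjusted limma p 0.182). The iduronidase gene Idua differed by -0.27 (SE 0.08), and the acid phosphatase gene Acp2 by 0.13 (SE 0.05). Grn, the precursor of the lysosomal granulins, was singled out after its values were seen. It had 1033 and 2475 in knockout, 1039 and 945 in NestinCre control and 1096 and 1019 in Flox control, and so was high only on knockout replicate 2.

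Among 21 measured genes of the lysosomal membrane and proton pump, 1 had an unadjusted limma p under 0.05, in the higher direction, and the median was -0.02. That gene was Slc11a1, a metal transporter of phagocyte lysosomes, with 256 and 276 in knockout, 149.8 and 139 in NestinCre control and 142 and 151 in Flox control, a log2 difference of 0.87 (SE 0.06, adjusted limma p 0.0792). The membrane protein genes Laptm4b and Laptm4a differed by -0.11 (SE 0.05) and 0.10 (SE 0.05). Of 16 genes for sorting of lysosomal enzymes and control of lysosomal genes, 0 were higher and 2 lower at that p, with a median of 0.0014. M6pr, the cation-dependent mannose 6-phosphate receptor, differed by -0.15 (SE 0.05), Gnptg, a subunit of the enzyme that makes the mannose 6-phosphate tag, by -0.16 (SE 0.06), and Tfeb, the transcription factor of lysosomal genes, by -0.16 (SE 0.08).

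The MHC class II pathway, in which cathepsin S acts, had 2 of 9 measured genes with an unadjusted limma p under 0.05, both higher, against 4.16% of all genes, and a median of 0.06. Set against NestinCre control alone the median log2 difference was 0.26. Against Flox control alone it was 0.02, with 4 of 9 genes below 0, against 62.6% of all genes. NestinCre control minus Flox control had a median of -0.34. There 8 of 9 genes lay below 0, against 64.2% of all genes, and 3 were lower at that p, against 7.07%. H2-DMa, which loads peptides on class II, had 577 and 644 in knockout, 411 and 383 in NestinCre control and 487 and 515 in Flox control (log2 difference 0.45, SE 0.07, adjusted limma p 0.204). The invariant chain gene Cd74 had 495 and 422 in knockout, 305 and 284 in NestinCre control and 467 and 327 in Flox control, so that knockout overlapped Flox control. H2-DMb2 differed by 0.37 (SE 0.17).

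**Figure D4:**
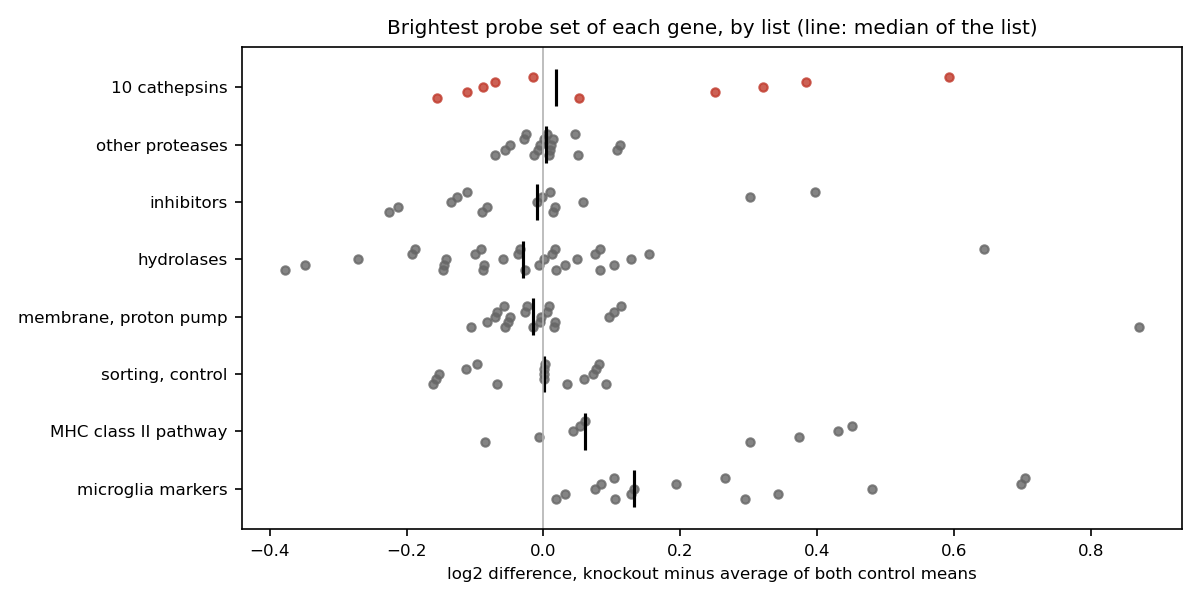
Difference of knockout from the average of both control means (horizontal axis, log2 scale) for the brightest probe set of each gene in 8 lists, with 1 point per gene and a vertical line at each list's median. The medians of the other lysosomal lists lie between -0.03 and 0.0032, the cathepsins at 0.02, the MHC class II pathway at 0.06 and the microglia markers at 0.13.

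Of the microglia markers, all 15 measured had a log2 difference above 0 against the average of both control means. The share over all genes was 40.7%, and the median of the markers was 0.13. At an unadjusted limma p under 0.05 there were 6 of 15, all higher, against 4.16% of all genes, and none passed after adjustment. Aif1 differed by 0.70 (SE 0.06), the leukocyte phosphatase Ptprc by 0.70 (SE 0.09) and Tyrobp by 0.48 (SE 0.07), beside 0.59 for Ctsc and 0.38 for Ctss. Against NestinCre control alone 14 of 15 lay above 0, against 49.1% of all genes, and the lowest stood at -0.30. Against Flox control alone 14 of 15 lay above 0, against 37.4% of all genes, and the lowest stood at -0.046. The summed intensity of the markers was 15904 and 16485 in knockout, 14179 and 14066 in NestinCre control and 15451 and 14212 in Flox control. Perivascular macrophage markers summed to 1702 and 1762 in knockout and to 1457 to 1797 in the controls. Of these 10 markers, 4 were higher against both controls at an unadjusted limma p under 0.05, against 4.16% of all genes. The log2 difference lay below 0 for 4 of 10, against 59.3% of all genes, with the lowest at -0.67. Both knockout arrays lay above all controls on 4 of 10, against 7.23% of all genes, and below them on 3 of 10, against 10.9%. Of 17 markers of blood leukocytes 1 lay above the median brightness, and 1 was higher and 1 lower at that p. Their sums were 1158 and 1138 in knockout and 1172 to 2158 in the controls. The part of these cells in the cathepsin values was not tested.

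The genes with profiles nearest to that of Ctsc were sought among 11474 genes above the median brightness, by the root mean square difference of centred log2 values over 6 arrays. They were Entpd1 (0.07), an ectonucleotidase of microglia and vessels, Rnf213 (0.07), a large interferon-induced ubiquitin ligase, Inpp5d (0.07), a phosphatase of blood cells, Cd84 (0.08), a leukocyte receptor, and Padi2 (0.09), a deiminase of glia and leukocytes. Their log2 differences of knockout from both controls ran from 0.46 to 0.76. Nearest to Ctso were Ppil6, Slc26a6, Zfp729b, Bloc1s5 and Sh3bp5, with root mean square differences of 0.03 to 0.04. For them NestinCre control minus Flox control ran from -0.37 to -0.28, beside -0.34 for Ctso. The neighbours of Ctsc and of Ctso were chosen for nearness on these same 6 arrays. Group differences near those of Ctsc and Ctso follow from that choice and are no separate result.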

How the data were processed

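Brain RNA was measured on 6 one-colour arrays, 2 per group, with groups taken from the sample titles. The deposited intensity values are linear and already normalized. Per the submitters' processing notes the tools were GCOS and RMA, without versions, roles or order. The log2 of each value was taken. Of 45101 probe sets, 64 controls were left out and 45037 tested with limma 3.58.1 in R 4.3.3, with group means over all 6 arrays (4.94 residual degrees of freedom with the prior), two-sided, with Benjamini-Hochberg adjustment over all probe sets and a threshold of 0.05. The number of arrays limits the precision. A platform table named 1 gene for 34945 probe sets, several for 932 and none for 9160. Promoter sequences came from RefSeq (GRCm38.p6).

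All members are described by their brightest probe set, with up to 3 genes of each other list by smallest p and the 5 nearest profiles of 2 members. Grn, S100a8 and S100a9 were chosen after their values were seen. Members and lists were chosen with earlier results of these data known. The test was checked on simulated data. Alternatives were an offset of 16 before log2, the scaling between arrays, a trend in the prior, a filter on dim probe sets, only the groups compared, the brightest probe set of each gene, sex, a replicate block and leaving out each array.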

Additional observations from a re-analysis of the deposited data

How the results depend on the processing

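Over 666 log2 differences of the brightest probe sets under the alternatives, 624 kept their direction and 42 did not. Those of Ctsc, Ctss, Ctsh and Ctsz against both controls stayed above 0 under every alternative run. With only the brightest probe set of each gene tested, 1 cathepsin, Ctsc, passed the adjusted limma threshold against both controls, in place of 0. That fit adjusted for fewer tests, and the share of all genes passing in it was not counted. The SE of Ctsc was 0.054 there, in place of 0.050. Its unadjusted limma p was 7.06e-05, in place of 8.44e-05. With each array left out, the adjusted limma p of Ctsc ran from 0.244 to 0.367. Such fits leave a group with 1 array, which is assumed to vary like the others.

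Replicate numbers were not used to pair the samples in the main fit. Differences of replicate 1 from replicate 2 correlated at -0.31 between knockout and NestinCre control and -0.24 between knockout and Flox control. Between NestinCre control and Flox control they correlated at 0.19. Replicate 1 read as male in knockout and as female in NestinCre control, so these correlations cannot tell whether samples were paired. With the replicate block, the count at an unadjusted p under 0.05 against both controls was 5 of 22, against 9.82% of all probe sets in that fit, and the adjusted limma p of Ctsc was 0.306.

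With sex as a covariate, counts at an unadjusted limma p under 0.05 were 9 of 22 against both controls, where 10.3% of all probe sets in that fit were called, and 5 against NestinCre control, where 6.42% were. Arrays read as female alone also gave 5 against NestinCre control (5.96% of all), but knockout and NestinCre control have 1 array each there, so the spread came from the 2 Flox control arrays alone. With 16 added before log2, NestinCre control against Flox control gave 2 (10.4% of all). With each array left out, the counts ran from 4 to 6 against both controls (8.14% to 13.5% of all), 2 to 7 against NestinCre control (3.93% to 7.83%), 4 to 9 against Flox control (10.2% to 18.8%) and 1 to 2 between NestinCre control and Flox control (7.48% to 12.1%). The highest counts came without knockout replicate 1, at 7 against NestinCre control (7.83% of all) and 9 against Flox control (10.2% of all).

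On arrays read as female alone, differences with both controls turned to 0.0049 for Ctsb, 0.042 for Ctsd and 0.068 for Ctsl. Those with Flox control turned to 0.062 for Ctsd, 0.00081 for Ctsf and 0.076 for Ctsl, and those with NestinCre control to 0.022 for Ctsd and 0.061 for Ctsl. NestinCre control minus Flox control turned to 0.040 for Ctsd, 0.0077 for Ctsf, -0.12 for Ctsk and 0.015 for Ctsl. With sex as a covariate, differences with Flox control turned to 0.026 for Ctsd, -0.023 for Ctsk and 0.0055 for Ctsl, and NestinCre control minus Flox control to 0.076 for Ctsd, 0.019 for Ctsf, -0.054 for Ctsk and 0.085 for Ctsl. The cause was not tested.

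With each array left out, differences with both controls ran from -0.22 to 0.083 for Ctsd, -0.30 to 0.083 for Ctsf, -0.030 to 0.13 for Ctsk and -0.26 to 0.084 for Ctsl. Those with NestinCre control ran from -0.20 to 0.10 for Ctsd, -0.22 to 0.16 for Ctsf, -0.13 to 0.19 for Ctsk, -0.25 to 0.093 for Ctsl and -0.0097 to 0.036 for Ctso. Those with Flox control ran from -0.24 to 0.062 for Ctsd, -0.39 to 0.00081 for Ctsf, -0.055 to 0.20 for Ctsk and -0.27 to 0.076 for Ctsl. NestinCre control minus Flox control ran from -0.12 to 0.040 for Ctsd, -0.34 to 0.0077 for Ctsf, -0.12 to 0.20 for Ctsk and -0.050 to 0.015 for Ctsl.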

Other observations

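Markers of other cells were also read against both controls. All 10 choroid plexus markers measured had a log2 difference below 0, against 59.3% of all genes, with a median of -0.34. Of them 5 had an unadjusted limma p under 0.05, against 6.45% of all genes in the lower direction. Their summed intensities were 13828 and 14127 in knockout, 15717 and 14570 in NestinCre control and 14999 and 14996 in Flox control. Of 10 astrocyte markers 2 were higher and 4 lower at that p, and on 6 of 10 both knockout arrays lay below all controls, against 10.9% of all genes. Of 12 endothelial and mural cell markers 4 were lower at that p, against 6.45% of all genes. The median log2 difference of the 12 was -0.05, with 3 above 0, against 40.7% of all genes, and the lowest at -2.16. After adjustment 1 of the 12 passed the limma threshold, against 0.0275% of all genes. The sums of all 12 were 5563 and 5384 in knockout, 7527 and 7969 in NestinCre control and 8493 and 7608 in Flox control.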
